A study of Homo sapiens with 4 samples.

Results

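The caveolins CAV1 and CAV2, the cavins CAVIN1, CAVIN2 and CAVIN3 and the ATPase EHD2 build or hold caveolae, and their RNA was followed in HCC1954 cells, an established human ERBB2-positive breast cancer cell line. The 6 genes were taken by symbol from a table of 58735 genes. The study asked whether ZDHHC15, an enzyme that attaches palmitate to cysteines of other proteins, controls the Hippo pathway and its transcriptional coactivator YAP. Total RNA was sequenced from 2 samples with a scrambled control hairpin (shCON) and 2 samples with a hairpin against ZDHHC15 (shZDHHC15), all grown in the same serum-containing medium. Both hairpins were GIPZ lentiviral vectors. By the series text the knockdown was stable, whereas the treatment protocol has plasmids brought in by transient lipofection and cells taken 36 h later, so how long the cells had carried the hairpin is not settled. Nor do they say whether the 2 shZDHHC15 samples are repeat cultures or different hairpins, so p-values measure the spread between these samples only.

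Caveolae are small flask-shaped pits of the plasma membrane, abundant in endothelium, fat and muscle and also present in many basal-like and mesenchymal carcinoma lines. Caveolin-1 and caveolin-2 are inserted into the membrane as hairpins and carry palmitate, and cavin complexes, built on the trimer-forming cavin-1, coat the pit from the cytoplasm. EHD2 forms rings at the neck that keep the pit at the surface. CAV1 is also known as a gene that responds to YAP. Palmitate on the proteins was not measured here, only the RNA.

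The RNA of the caveolar core was lower with the ZDHHC15 hairpin. CAVIN1 fell by 48.7%, CAV1 fell by 35.5% and CAV2 fell by 31.9%, each in both samples. The fitted EHD2 level of shZDHHC15 was 0.865 of that of shCON, which did not pass the test over all genes. CAVIN2 was low, with 19 to 33 counts per sample, and CAVIN3 had no count in any sample. In bulk RNA, fewer cells that express a gene and less RNA per cell cannot be told apart.

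The sequence before the starts of CAV1, CAV2 and EHD2 is shown because the first 2 lie next to each other and fell together. EHD2, lower by a smaller amount that did not pass the test, is set beside them. The difference between these genes was not tested. Each line gives the stretch, within 250 bases before a RefSeq start on GRCh38.p14, that no exon of GENCODE release 29 covers, and capitals mark GGGCGG or its reverse complement, the GC box.
CAV1, plus strand, chr7:116526112-116526276, 165 bases: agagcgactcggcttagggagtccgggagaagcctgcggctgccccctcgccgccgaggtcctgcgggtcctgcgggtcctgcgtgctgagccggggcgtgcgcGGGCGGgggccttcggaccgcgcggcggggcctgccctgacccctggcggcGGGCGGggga
CAV2, plus strand, chr7:116499932-116500043, 112 bases: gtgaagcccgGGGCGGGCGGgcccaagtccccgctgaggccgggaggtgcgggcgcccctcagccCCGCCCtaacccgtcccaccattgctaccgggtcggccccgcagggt
EHD2, plus strand, chr19:47713172-47713342, 171 bases: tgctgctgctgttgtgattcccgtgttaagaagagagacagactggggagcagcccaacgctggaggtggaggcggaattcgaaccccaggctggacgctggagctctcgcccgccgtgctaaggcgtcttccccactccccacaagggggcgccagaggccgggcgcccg

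These stretches belong to a downstream start of CAV1 and of CAV2, whose most upstream RefSeq windows lie largely or wholly in annotated exons, and to the only RefSeq start of EHD2. RefSeq windows were matched for 4 of the 6 genes, CAV1, CAV2, CAVIN2 and EHD2. Over the full 250 bases, both strands were searched for GGAATG, the core of the TEAD motif through which YAP reaches DNA, for TGANTCA, the AP-1 motif, and for GGGCGG. The first CAV1 window held 3 GC boxes, the first CAV2 window 6 and the EHD2 window 1, while the CAVIN2 window held none. GGAATG was found in the CAVIN2 window, 16 bases before the start, and in 0 of the windows of CAV1, CAV2 and EHD2, and TGANTCA in 0 of the windows of these genes. Among all 35116 RefSeq windows of this length, 11.9% held GGAATG, 6.57% TGANTCA and 42.6% GGGCGG. The first windows of CAV1 and CAV2 had 63.6% and 83.2% G and C, that of EHD2 69.6% and that of CAVIN2 48.0%, against a median of 58.0%. These are matches of letters and nothing was measured about binding.

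Counts on genes summed to between 17560982 and 19118704 per sample. Levels are given as CPM, counts scaled to a common library total, after TMM scaling, which equalises the bulk of the genes between samples, while a gene without a read may still reach 3 counts, or between 0.153 and 0.178 CPM, for counting error only. Tests are edgeR's quasi-likelihood test over 15817 genes with Benjamini-Hochberg adjustment, a gene passing under an adjusted p of 0.05. ZDHHC15 had 17617 and 15716 counts in shCON and 0 and 0 in shZDHHC15, at least 6050-fold lower against a floor of 3 counts per library. YAP1 had 7764 and 7011 counts in shCON and 1024 and 1272 in shZDHHC15, a log2 fold change of -2.81.

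Of the 6 genes, 5 passed the filter on low counts, and 3 were called lower and 0 higher. Across all tested genes, 20.3% were called lower, 21.7% higher and 42.0% in either direction, so a call by itself is common in this comparison. At an unadjusted p under 0.05, and by the DESeq2 Wald test, 0 of the 6 genes were higher as well. The median log2 fold change of the 5 tested genes was -0.56, against 0.02 over all 15817 tested genes.

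**Figure D1:**
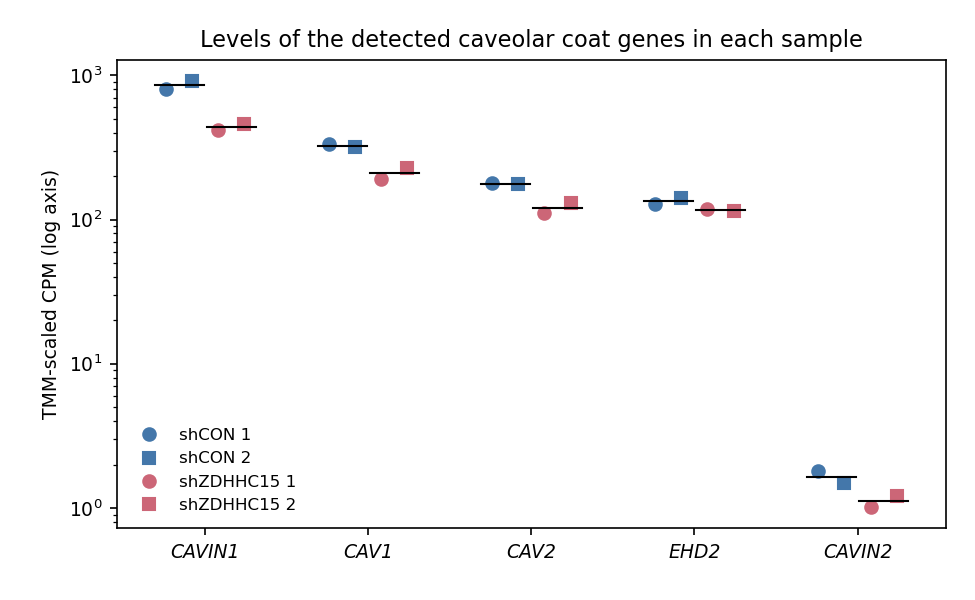
TMM-scaled CPM on a log axis for the 5 genes with counts, with circles for sample 1 and squares for sample 2 of each group and a black line at each group mean. CAVIN1, CAV1 and CAV2 sit lower in both shZDHHC15 samples, EHD2 is close to level, and CAVIN2 lies between 1.02 and 1.81 CPM.

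Among the cavins, CAVIN1 (ENSG00000177469, chr17:42402452-42423517, minus strand, GRCh38) codes for cavin-1, without which caveolae do not form. It was counted 14588 and 15360 times in shCON and 7731 and 9075 times in shZDHHC15. In TMM-scaled CPM these are 799 and 909 against 415 and 462, or 854 ± 78.1 against 438 ± 33.3 (SD, n = 2 each). The groups did not overlap, and the highest shZDHHC15 sample was far below the lowest shCON sample. With 2 samples against 2, an exact two-sided permutation test cannot go below p = 0.33. Non-overlap, here and for the genes below, is therefore a description. The log2 fold change was -0.96 (SE 0.0956, adjusted p = 1.93e-06), which is 1.95-fold lower. Of all tested genes, 4.61% had a lower log2 fold change. In shCON its level per kb of gene length exceeded that of 98.8% of the 12957 tested protein-coding genes.

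CAVIN2 (ENSG00000168497, chr2:191834302-191847255, minus strand) codes for cavin-2, which helps to bend the membrane. It had 33 and 25 counts in shCON and 19 and 24 in shZDHHC15, or 1.81 and 1.48 against 1.02 and 1.22 CPM. The samples of shCON were the higher ones, but the gap between the groups was within what so few counts allow. The log2 fold change of -0.55 had an SE of 0.361 (adjusted p = 0.239), and a change was not detectable at this depth. The antisense gene AC098617.1 overlaps 7.22% of the CAVIN2 exons and had at most 1 count. CAVIN3 (ENSG00000170955, chr11:6318946-6320647, minus strand), the gene for cavin-3, had 0 counts in all 4 samples and was not tested. That allows up to 0.0915 to 0.106 CPM per kb, and AC068733.3, on the opposite strand and also at 0, overlaps 33.3% of its exons.

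Of the caveolins, CAV1 (ENSG00000105974, chr7:116524785-116561184, plus strand) codes for the membrane protein that caveolae are named for. It had 6091 and 5362 counts in shCON and 3563 and 4496 in shZDHHC15. In CPM these are 334 and 317 against 191 and 229, or 326 ± 11.4 against 210 ± 26.6 (SD, n = 2 each). The groups did not overlap, and shZDHHC15 sample 1 was the lowest of the 4. The log2 fold change was -0.63 (SE 0.100, adjusted p = 1.55e-04), and 11.4% of all tested genes had a lower one.

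CAV2 (ENSG00000105971, chr7:116287380-116508541, plus strand) codes for the partner that assembles with caveolin-1 and depends on it to reach the surface. Its counts were 3249 and 2982 in shCON and 2065 and 2565 in shZDHHC15, or 178 and 177 against 111 and 130 CPM. The 2 shCON samples were almost equal, shZDHHC15 sample 1 was again the lowest, and the groups did not overlap. The means of 177 ± 0.993 and 121 ± 14.0 CPM gave a log2 fold change of -0.56 (SE 0.101, adjusted p = 4.8e-04). The antisense gene AC002066.1 overlaps 1.1% of the CAV2 exons and had at most 13 counts in a sample.

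EHD2 (ENSG00000024422, chr19:47713343-47743134, plus strand) had 2353 and 2379 counts in shCON and 2203 and 2265 in shZDHHC15. In CPM these are 129 and 141 against 118 and 115. The shZDHHC15 samples were the lower ones by a small margin. The log2 fold change of -0.21 (SE 0.0951, adjusted p = 0.0926) did not pass, and 33.4% of all tested genes had a lower one. Without shCON sample 1 the log2 fold change was -0.30, further from 0. Both the size of the EHD2 change and whether it passes therefore depend in part on that sample. CAVIN1, CAV1 and CAV2 were called in each of the 8 other settings and each of the 4 fits with a sample left out.

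**Figure D2:**
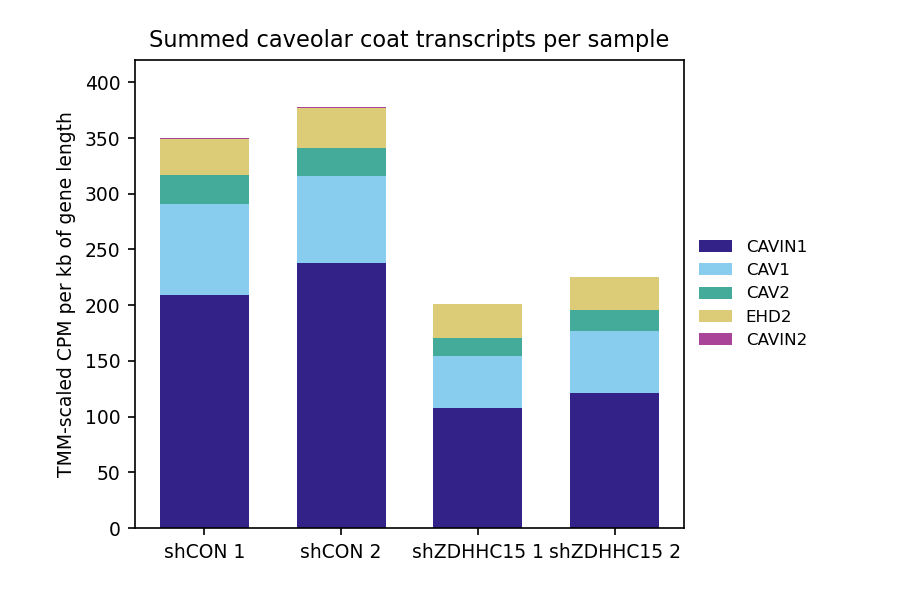
Stacked CPM per kb of gene length for the 5 genes with counts in each sample (bars start at 0). The summed bar falls from 350 and 377 in shCON to 202 and 225 in shZDHHC15, mostly through CAVIN1, while the EHD2 segment spans 29.4 to 35.9 CPM per kb.

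Levels of different genes were compared per kb of gene length, the merged exon length in the table. In both groups the order was CAVIN1, CAV1, EHD2, CAV2 and CAVIN2, with CAVIN3 below the detection limit, and no neighbours in it overlapped within a group. In shCON the level of CAVIN1 was 223 ± 20.4 CPM per kb, that of CAV1 79.8 ± 2.8, that of EHD2 34.4 ± 2.16 and that of CAV2 25.6 ± 0.143. In shZDHHC15 the levels were 114 ± 8.69 for CAVIN1, 51.4 ± 6.52 for CAV1, 29.7 ± 0.526 for EHD2 and 17.4 ± 2.02 for CAV2. The CAV2 length counts exons of transcripts that start far upstream, which lowers its value per kb.

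EHD2 took a larger share of the summed level in both shZDHHC15 samples. It made up 9.4% and 9.52% of that level per kb in shCON and 14.9% and 13.0% in shZDHHC15. The share of CAVIN1 went from 59.7% and 63.0% to 53.7% and 53.5%. The ratio of CAVIN1 to CAV1 per kb was 2.55 and 3.05 in shCON and 2.31 and 2.15 in shZDHHC15, so the groups did not overlap but lay close. The ratio of CAV2 to CAV1 was 0.314 and 0.328 against 0.342 and 0.336, a difference of 5.56% between the means. With 2 samples against 2, an exact two-sided permutation test of such a ratio cannot go below p = 0.33, and these ratios are given as a description.

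Around them stand the other EHD and PACSIN genes, the muscle forms CAV3 and CAVIN4 and the receptor ROR1, which is known to stabilise caveolae. Of these 9 genes, 7 were tested, 2 were called higher and 2 lower, with a median log2 fold change of -0.16. The calls are 57.1% of those tested, beside 42.0% of all tested genes. PACSIN3, an F-BAR protein of the caveolar neck in muscle, had 1417 and 1669 counts in shCON and 716 and 732 in shZDHHC15. It fell by 1.22 on the log2 scale (SE 0.122, adjusted p = 2.12e-06), with groups that did not overlap. Its fitted change lay below that of CAVIN1, but the difference between the genes was not tested. PACSIN2, its widely expressed relative, had a log2 fold change of -0.04 (adjusted p = 0.753), from 149 to 144 CPM.

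EHD4, another ATPase of the EHD family, had 1408 and 1415 counts in shCON and 2200 and 2122 in shZDHHC15. Its log2 fold change was 0.49 (SE 0.100, adjusted p = 0.00122), called in all settings. EHD4 per kb was 0.298 and 0.296 of the EHD2 level in shCON and 0.497 and 0.466 in shZDHHC15. EHD1, an endocytic recycling ATPase, stood at 590 and 650 CPM against 509 and 600, with a log2 fold change of -0.16 (adjusted p = 0.205). EHD3 had a log2 fold change of -0.48 (adjusted p = 0.0339), but the call was lost in 3 of the 8 other settings and in the 3 fits that left out a sample other than shCON sample 1. PACSIN1, with 9 and 1 counts in shCON and 16 and 19 in shZDHHC15, passed at 0.0438 and lost the call in 3 of 7 settings and in the same 3 fits. CAV3 had at most 1 count and CAVIN4 between 4 and 17 counts, and both were left untested. Without shCON sample 1, 4 genes of this list were called lower, EHD1 and ROR1 among them, and without any of the other samples 1 was.

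**Figure D3:**
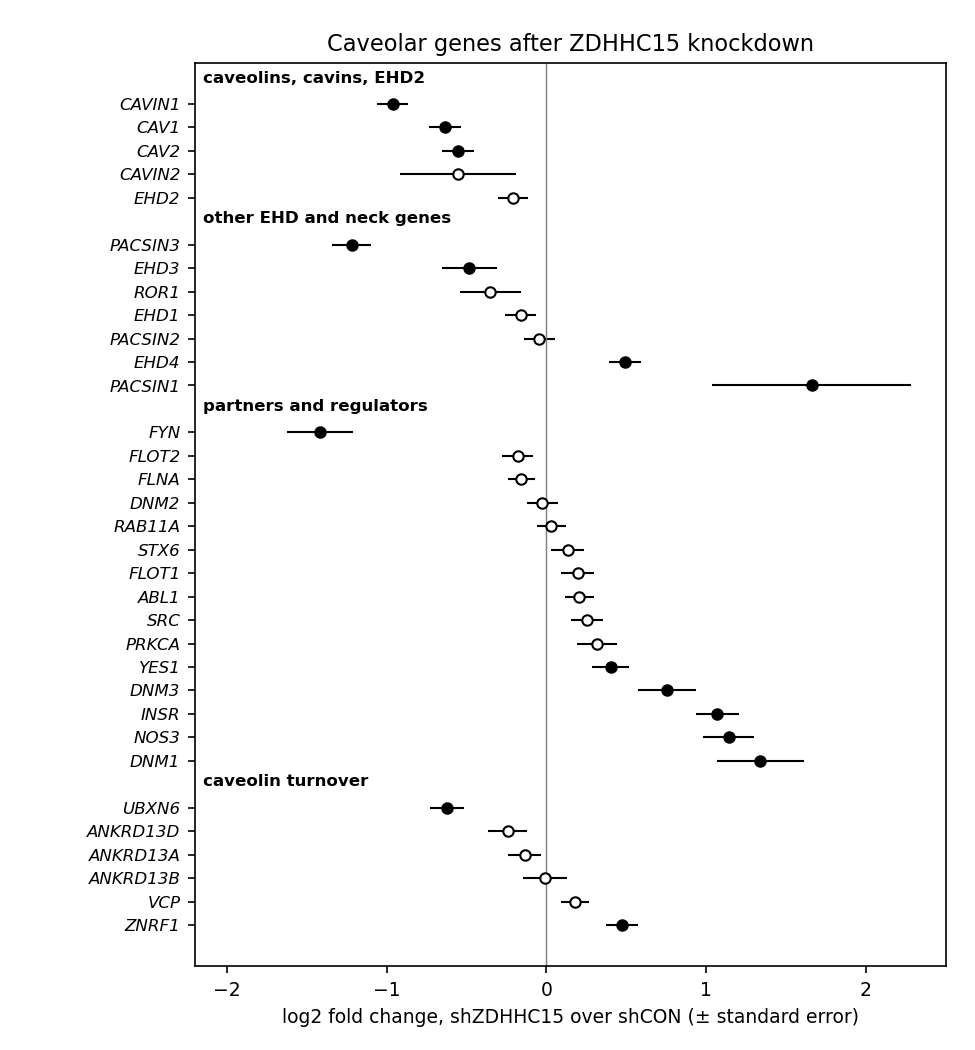
Log2 fold change (shZDHHC15 over shCON) with its standard error for the tested caveolar genes except 1 partner, filled circles passing an adjusted p under 0.05. CAVIN1, CAV1 and CAV2 lie on the left, PACSIN3 lies left of all 5 tested core genes, and INSR, NOS3 and DNM1 stand on the right.

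Of 17 signalling and traffic partners, 16 were tested, 5 were called higher and 2 lower, with a median of 0.20. These calls are 43.8% of the tested partners, close to the 42.0% of all tested genes. FYN, a palmitoylated Src-family kinase that acts with caveolin-1, had 153 and 147 counts in shCON and 59 and 63 in shZDHHC15, a log2 fold change of -1.42 (SE 0.207, adjusted p = 7.39e-05). FLNA, the filamin that links caveolae to actin, had a log2 fold change of -0.16 (adjusted p = 0.146) at 4140 against 3710 CPM.

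In the other direction, NOS3, the endothelial nitric oxide synthase that caveolin-1 binds, rose from 131 and 122 counts to 286 and 322, by a log2 fold change of 1.14 (adjusted p = 5.27e-05). ATG9B, on the opposite strand, overlaps 13.2% of the NOS3 exons and had 25 and 14 counts in shCON and 44 and 53 in shZDHHC15. INSR, the insulin receptor, which resides in caveolae of fat cells, rose from 13.5 to 28.4 CPM (log2 fold change 1.07, adjusted p = 1.81e-05). Of the dynamins, the GTPases that cut vesicles from the membrane, DNM1 rose by 1.34 and DNM3 by 0.76 on the log2 scale (adjusted p = 0.00112 and 0.00396). DNM2, the widely expressed form, had a log2 fold change of -0.03 (adjusted p = 0.85). YES1 rose by 0.40 (adjusted p = 0.0113), a call lost in 1 of the 8 settings and without shCON sample 2 or shZDHHC15 sample 1. SRC, ABL1 and PRKCA had log2 fold changes of 0.26, 0.21 and 0.32 that missed the threshold, with adjusted p of 0.0509, 0.0828 and 0.0515.

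A further list holds genes known to bring caveolin-1 to the lysosome. Of 6, all tested, 1 was called higher and 1 lower, with a median of -0.07, and these calls are 33.3% of the list beside 42.0% of all tested genes. ZNRF1, a ubiquitin ligase, rose by 0.47 (adjusted p = 0.00195), and UBXN6, a cofactor of the ATPase VCP, fell by 0.62 (adjusted p = 3.07e-04). VCP itself had a log2 fold change of 0.18 (adjusted p = 0.106). The exons of both called genes overlap genes on the opposite strand, among them AC099508.1 over 18.9% of ZNRF1, with 0 counts in all samples. Without shCON sample 1, 2 genes of this list were called lower.

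The clathrin coat is the other main coat for uptake at the cell surface. Of its 27 listed genes, 26 were tested, 8 were called higher and 7 lower, with a median of 0.16. These calls are 57.7% of the tested clathrin genes, beside 42.0% of all tested genes. Among the 8 higher genes SYNJ1, a phosphoinositide phosphatase that removes the coat, had the highest value, from 351 and 287 counts to 899 and 875 (log2 fold change 1.35, adjusted p = 8.19e-07), followed by AMPH at 1.00 (adjusted p = 0.0126), whose call was lost in 1 of the 8 settings and without shCON sample 2. Among the 7 lower genes FCHO1, which starts the pit, had the lowest at -1.33 (adjusted p = 7.21e-05), followed by CLTB at -1.15 (adjusted p = 8.78e-07).

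The clathrin chains themselves split. The heavy chain gene CLTC had 271 and 224 CPM in shCON and 417 and 378 in shZDHHC15, a rise of 0.68 on the log2 scale (adjusted p = 1.07e-04), and PTRH2 on the opposite strand overlaps 2.06% of its exons. The light chain gene CLTB had 304 and 371 CPM in shCON and 146 and 158 in shZDHHC15. The light chain gene CLTA had a log2 fold change of -0.21 (adjusted p = 0.073). Without shCON sample 2 the count of higher clathrin genes was 3, and without shZDHHC15 sample 1 the counts were 5 higher and 4 lower. No test compared the caveolar list with the clathrin list.

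**Figure D4:**
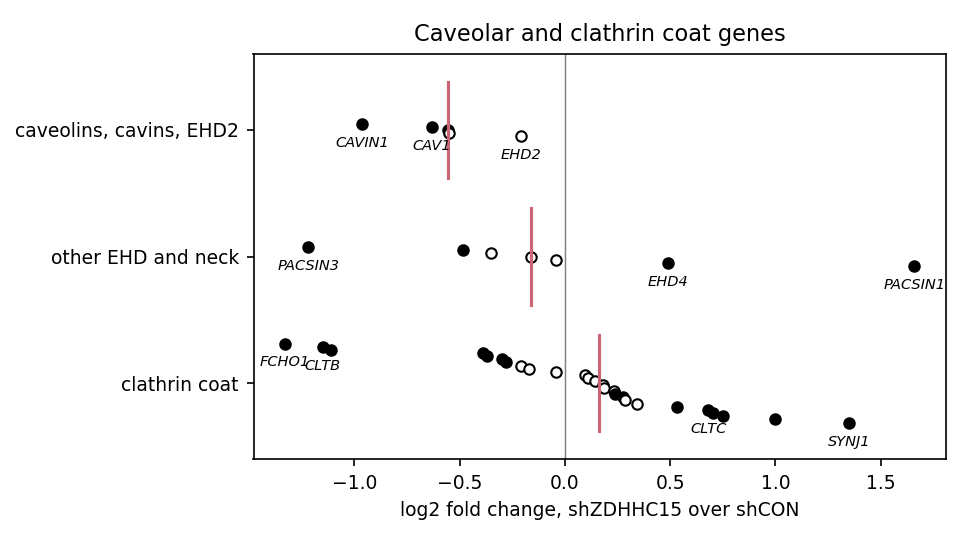
Log2 fold change of each tested gene in 3 lists, filled circles passing an adjusted p under 0.05 and a red line at each list's median. The core caveolar genes have a median of -0.56 and lie left of 0, and the clathrin genes lie on both sides with a median of 0.16.

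CAV2 and CAV1 lie on chromosome 7 with a gap of 16.2 kb between them. TES codes for the focal adhesion protein testin and lies 28.6 kb from the annotated span of CAV2. That span begins at 116287380, far upstream of the RefSeq starts of CAV2, whose first window ends at 116499737. TES had 1967 and 1702 counts in shCON and 1350 and 1457 in shZDHHC15. It fell by 0.51 on the log2 scale (SE 0.0975, adjusted p = 7.54e-04), with groups that did not overlap, and AC073130.3, with at most 6 counts, overlaps 5.65% of its exons. On the other side MET, the hepatocyte growth factor receptor gene 111 kb from CAV1, had a log2 fold change of 0.37 (SE 0.0947, adjusted p = 0.00615), a call lost without shZDHHC15 sample 1, where the adjusted p was 0.055. CAPZA2, an actin capping subunit gene 250 kb from CAV1, had a log2 fold change of -0.0012 (adjusted p = 0.994). Thus 3 adjacent tested genes, TES, CAV2 and CAV1, were lower, and the next protein-coding gene was higher.

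**Figure D5:**
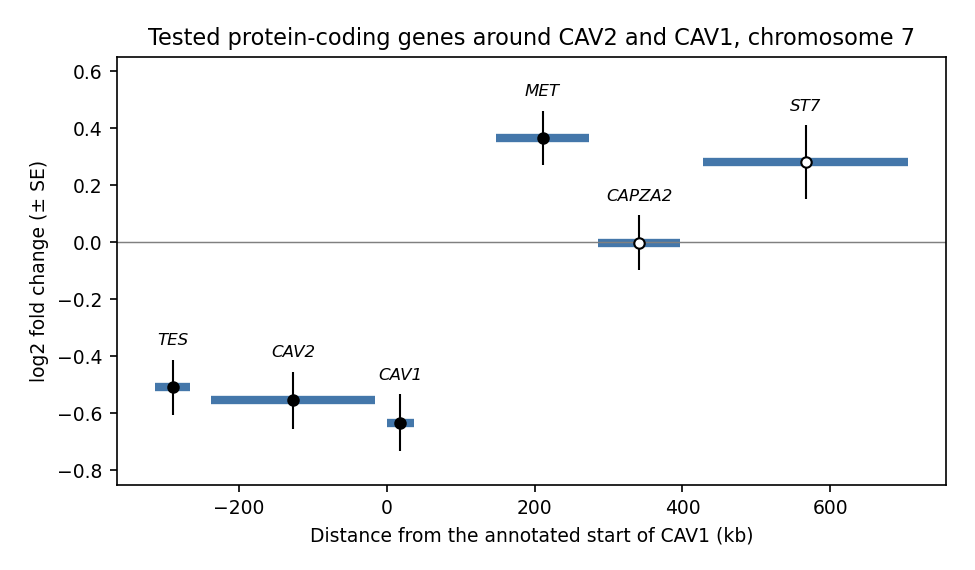
Log2 fold change with standard error for the tested protein-coding genes around CAV2 and CAV1, against distance from the annotated start of CAV1, with blue bars spanning each gene and filled circles passing an adjusted p under 0.05. TES, CAV2 and CAV1 lie between -0.51 and -0.63, and MET at 0.37.

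The genes beside the other loci moved either way. STAT3, 13.9 kb from CAVIN1, rose by 0.73 on the log2 scale (adjusted p = 1.29e-05), from 262 to 434 CPM. On the other side of CAVIN1, ATP6V0A1 had a log2 fold change of 0.15 (adjusted p = 0.282). Beside EHD2, BICRA rose by 1.07 (adjusted p = 1.77e-04) and NOP53, at a distance of 2.39 kb, had a log2 fold change of -0.79 (adjusted p = 2.02e-05). NABP1, 138 kb from CAVIN2, had a log2 fold change of -0.39 (adjusted p = 0.0329), a call lost in 2 of the 8 settings and without shZDHHC15 sample 1. Stretches of NABP1 of at least 150 bases match many other genes at 97% identity or more. Beside CAVIN3, CCKBR had 0 counts and SMPD1 a log2 fold change of 0.25 (adjusted p = 0.103). Of 108 other protein-coding genes within 500 kb of any of the 6 genes, 69 were tested. Of these, 17 were called higher and 13 lower, with a median of 0.03, beside 21.7% higher and 20.3% lower among all tested genes. Without shZDHHC15 sample 1 the lower count was 6.

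The genes whose pattern over the 4 samples was most like each member were found by the root mean square difference in centred log2 CPM among 12956 protein-coding genes. For CAVIN1 they were NXN, CDC42EP1 and SAPCD2, with differences of 0.0071, 0.014 and 0.017. For CAV1 they were ZNF408, DUSP9 and IFRD1, with differences of 0.015, 0.019 and 0.020. For CAV2 they were FAM72D, UXT and EPPK1, at 0.0096, 0.012 and 0.013, but FAM72D shares long stretches of over 99% identity with its copies, and UXT-AS1 overlaps 26.5% of UXT. For EHD2 they were CALCOCO1, DXO and RHNO1, at 0.0086, 0.011 and 0.011. For CAVIN2 they were ZNF26, CEBPZOS and OTULINL, at 0.018, 0.022 and 0.028. With 4 samples in 2 groups, likeness mostly reflects a similar fold change.

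Of the epithelial markers of the line, KRT8 and ERBB2 had the highest levels in shCON. ERBB2 stood at 5750 ± 241 and 4870 ± 224 CPM in shCON and shZDHHC15 and KRT8 at 6050 ± 401 and 1970 ± 163 (SD, n = 2 each). KRT18 overlaps 7.63% of the KRT8 exons on the opposite strand, and MIEN1 5.53% of those of ERBB2. Of the 8 listed, 6 were called lower and 1 higher, which is 87.5% of the list, beside 42.0% of all tested genes. The summed level of the 8 was 18900 and 20500 CPM in shCON and 11800 and 12100 in shZDHHC15. Of the 6 endothelial markers, 3 were tested, 2 were called higher and 1 lower, 100% of those tested beside 42.0% of all tested genes. CDH5 stood at 45.2 and 70.6 CPM and PECAM1 rose from 75 and 56 counts to 666 and 405 (log2 fold change 2.91, adjusted p = 5.43e-07), while VWF, TEK and CLDN5 had at most 7 counts. KDR went from 159 and 121 counts to 108 and 87 (log2 fold change -0.64, adjusted p = 0.0227), a call lost in 2 of the 8 settings and without shCON sample 1 or shZDHHC15 sample 2. The summed level of the 6 was 57.6 and 57.7 CPM in shCON and 108 and 101 in shZDHHC15. The fibroblast list summed to 5.81 and 7.22 CPM in shCON and 11.5 and 8.6 in shZDHHC15, mostly COL1A1, with LUM at 0. The adipocyte list summed to 0.274 and 0.296 CPM against 1.45 and 0.763, with ADIPOQ and FABP4 at 0. The leukocyte list summed to 0.657 and 0.414 CPM against 1.61 and 1.27, with CD3E among those at 0. In the fibroblast and leukocyte lists the 1 tested gene was called higher, but not by the DESeq2 Wald test. No adipocyte gene was tested. What part, if any, these markers have in the caveolar values was not tested.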

How the data were processed

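RNA was measured in 2 shCON and 2 shZDHHC15 samples of HCC1954 cells, grouped by the sample titles. The authors deposited 1 table of raw counts per gene, not normalized, and 0 of its sample columns went unused. Per the labels, HISAT2, StringTie and SAMtools and the build hg38 belong to the processing, without versions or roles. The counting tool and use of strand are not given in the sources used here. All 58735 rows matched GENCODE release 29 on GRCh38 by start, end and symbol.

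Genes were filtered by filterByExpr (minimum count 10), scaled by TMM (factors 0.962 to 1.03) and tested with edgeR 4.0.16 (glmQLFit with legacy = FALSE and glmQLFTest, R 4.3.3, limma 3.58.1). Standard errors were taken from the fold change and F. The method was tested on simulated counts with 200 changed genes. It recovered 26% of changes of 0.5 on the log2 scale and 85.5% of changes of 1, with 3.7% and 6.56% of calls false. The changed genes were 200 of 15415 and 200 of 15442, whereas 42.0% of all tested genes were called between the samples. Recovery at such a share of changed genes was not tested. Alternatives were upper-quartile factors, scaling by library size alone, size factors of DESeq2 1.42.0 and its Wald test, no filter, a minimum of 10 counts in each sample, the replicate block, the legacy quasi-dispersion and leaving out each sample, where the lone sample is assumed to vary like the other group. Replicates differed beyond sampling noise, with chi-square per degree of freedom 8.32 and 6.79.

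The genes and lists were chosen with earlier results of these data known. Named were the 6 genes, all tested genes of the caveolar lists, the 2 highest and 2 lowest called clathrin genes with their subunit families, the markers with the highest mean CPM, the 3 genes most alike each member, and genes nearest to, or called within 500 kb of, a member. Marker genes at or near 0, and genes that overlap a named gene, were added for context. Values of 1 called gene of the partner list and of 1 marker, which the counts and sums include, are not reported here. Overlaps and near-identical stretches (at least 150 bases, 97% identity, blastn 2.17.0, Python 3.11.15) were searched for the named genes except CALCOCO1, DXO, RHNO1, ZNF26, CEBPZOS and OTULINL.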

Additional observations from a re-analysis of the deposited data

How the results depend on the processing

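The direction and the call of CAVIN1, CAV1 and CAV2 held under the 8 alternative settings and the 4 fits with a sample left out, with log2 fold changes of -1.08 to -0.88, -0.77 to -0.51 and -0.68 to -0.44 when a sample was left out. EHD2 ranged from -0.30 to -0.16 when a sample was left out and from -0.24 to -0.13 under the 8 settings. It was uncalled under the 8 settings and passed only in the fit without shCON sample 1. CAVIN2 stayed uncalled in all of these fits. By library size only, the other EHD and neck list had 1 lower gene, the partner list 9 higher and 1 lower and the turnover list 2 higher, and PACSIN2 (0.0318), DNM2 (0.0488), ANKRD13B (0.065) and CAPZA2 (0.073) turned positive. By the DESeq2 Wald test the other EHD and neck list had 1 higher and 1 lower gene and the clathrin list 4 higher. Without a filter, 2282 of all genes were called higher and 2350 lower, with 1 higher and 1 lower in the other EHD and neck list, 1 lower partner and 4 higher clathrin genes. With at least 10 counts in every sample, and with the legacy quasi-dispersion, the other EHD and neck list had 1 higher gene, and in the former ANKRD13B (0.00142) and CAPZA2 (0.0102) turned positive. The labels do not say that the sample numbers pair the samples, and deviations of same-numbered samples correlated at 0.0344. With the replicate block, 3723 of all genes were higher and 3502 lower, 8 partners were higher, 2 turnover genes lower and CAPZA2 was at 9.3e-05, and no caveolin, cavin or EHD2 call changed. With 1 sample left out, counts ranged from 1 to 2 higher and 1 to 4 lower in the other EHD and neck list, 4 to 5 and 1 to 3 for partners, 1 to 2 lower for turnover, 3 to 8 higher and 4 to 8 lower for clathrin, and 6 to 15 lower for genes near the members. In those fits CAPZA2 ran from -0.0756 to 0.0352, DNM2 from -0.152 to 0.0621, RAB11A from -0.0115 to 0.0369, ANKRD13B from -0.231 to 0.173 and PACSIN2 from -0.131 to 0.033. The cause of these changes was not tested. Depth limits CAVIN2 and CAVIN3.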
